A study of Mus musculus with 8 samples.

Results

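Adult neurogenesis in the hippocampus was followed through 9 marker genes, Sox2, Nes, Mki67, Top2a, Eomes, Neurod1, Igfbpl1, Sox11 and Dcx. They were chosen by name, as markers of stem cells, dividing cells, intermediate progenitors and neuroblasts of the dentate gyrus, and all 9 had 1 row each among the 17171 genes of the authors' deposited table. The samples were whole hippocampus of C57BL/6 mice at 2 months of age. There were 4 samples labelled SUMO2-cKO, of genotype Sumo2 f/f with Emx1-Cre, and 4 labelled Control, of genotype Sumo2 f/f without Cre. The loxP-flanked Sumo2 alleles were thus common to both groups, and an effect of Sumo2 loss and an effect of carrying Emx1-Cre cannot be told apart. RNA was measured by stranded mRNA sequencing, and each gene's value is a log2 fold change, knockout over control, that the authors computed.

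In the adult dentate gyrus, radial glia-like stem cells divide rarely and give rise to intermediate progenitors, which divide more often and produce neuroblasts that mature into granule neurons. The transcription factor Eomes, also called Tbr2, is switched on in the intermediate progenitors, and Neurod1 and Dcx follow later in the lineage. Emx1-Cre recombines in the dorsal forebrain progenitors from which this lineage descends, along with pyramidal and granule neurons, astrocytes and some oligodendrocytes. SUMO2, the product of Sumo2, is a small protein that is attached to lysines of other proteins, many of them nuclear.

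None of the 9 genes passed an adjusted p of 0.05 in the authors' deposited table, where 257 of 17171 genes (1.5%) did by the authors' Wald test with Benjamini-Hochberg adjustment. The lowest log2 fold changes were those of Eomes at -1.31 and Igfbpl1 at -0.75, and both 95% intervals lay below 0. These 2 were also the members with an unadjusted p under 0.05 in the authors' deposited table, 0.00147 for Eomes and 0.00461 for Igfbpl1. The other 7 genes had intervals that held 0 and lay within a 2-fold change in either direction. The members' median log2 fold change was -0.05, with 3 positive and 6 negative values, beside a median of -0.00022 over all genes of the authors' deposited table.

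The 9 genes lie on 8 chromosomes, and their positions are those of GENCODE M21 on GRCm38, matched by identifier. Sox2 (ENSMUSG00000074637, chromosome 3, 34650405 to 34652461) is a gene of 1 exon inside an intron of the noncoding Sox2ot on the same strand, with no exonic base in common. Nes (ENSMUSG00000004891, chromosome 3, 87971078 to 87980451) has 4 exons and no overlapping gene. Mki67 (ENSMUSG00000031004, chromosome 7, 135689784 to 135716361) and Top2a (ENSMUSG00000020914, chromosome 11, 98992943 to 99024189) have 14 and 36 merged exons, and 122 bases of Top2a, 1.35%, are shared with a snoRNA gene on the same strand. Eomes (ENSMUSG00000032446, chromosome 9, 118478212 to 118486132) has 6 merged exons, of which 118 bases, 2.84%, are shared with an antisense gene, Gm33460. Neurod1 (ENSMUSG00000034701, chromosome 2, 79452521 to 79456751) shares 201 exonic bases, 7.37% of its own, with Cerkl on the same strand, so reads there cannot be assigned to 1 gene. Igfbpl1 (ENSMUSG00000035551, chromosome 4, 45809468 to 45826923), Sox11 (ENSMUSG00000063632, chromosome 12, 27334264 to 27342574) and Dcx (ENSMUSG00000031285, chromosome X, 143855842 to 143933311) overlap no other annotated gene.

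The promoters of the gene with the largest difference, Eomes, and of the pair that marks dividing cells, Mki67 and Top2a, are shown because cell division genes are known to share promoter elements. The sequences are from RefSeq on GRCm38.p6, cover the 250 bases before the start site, and run 5′ to 3′ in the sense of the gene. Capitals mark 2 motifs found on either strand: CCAAT, the box bound by the NF-Y factor, and TTTGAA, a form of the CHR element of cell cycle promoters.
Eomes, chr9:118477939-118478188, plus strand: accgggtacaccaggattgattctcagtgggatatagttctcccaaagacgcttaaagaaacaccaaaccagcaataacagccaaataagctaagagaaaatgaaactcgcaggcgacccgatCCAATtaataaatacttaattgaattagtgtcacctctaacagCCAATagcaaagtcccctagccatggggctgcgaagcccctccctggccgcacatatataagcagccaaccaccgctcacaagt
Mki67, chr7:135716380-135716629, minus strand: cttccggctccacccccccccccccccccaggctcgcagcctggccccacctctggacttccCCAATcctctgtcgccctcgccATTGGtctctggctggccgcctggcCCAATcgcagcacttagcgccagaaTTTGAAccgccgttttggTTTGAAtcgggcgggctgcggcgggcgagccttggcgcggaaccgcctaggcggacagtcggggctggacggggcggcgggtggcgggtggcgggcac
Top2a, chr11:99024190-99024439, minus strand: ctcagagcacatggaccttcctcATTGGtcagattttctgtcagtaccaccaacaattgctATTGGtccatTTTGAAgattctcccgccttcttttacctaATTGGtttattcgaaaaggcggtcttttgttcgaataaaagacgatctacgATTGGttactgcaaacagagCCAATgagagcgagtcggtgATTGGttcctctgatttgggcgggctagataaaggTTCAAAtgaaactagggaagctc
Top2a holds 6 CCAAT boxes and 2 TTTGAA matches, Mki67 holds 3 and 2, and Eomes holds 2 CCAAT boxes and 0 TTTGAA matches. Over all 32851 RefSeq windows of this length, 33.9% hold CCAAT and 16.0% hold TTTGAA on either strand.

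RefSeq promoter windows were matched for 8 of the 9 genes, all but Igfbpl1, and Dcx had 2 start sites, which makes 9 windows. CCAAT was found in 6 of the 9 windows and TTTGAA in 3, those of Mki67, Top2a and Sox11. The E-box CANNTG, the core that proneural factors such as Neurod1 bind, was found in 3 windows, those of Neurod1, Sox11 and Top2a, and in 66.2% of all windows. The GC box GGGCGG was found in 6 windows and in 32.7% of all. In Top2a, 1 E-box overlaps the TTTGAA match closest to the start. These matches are letters in a short window and say nothing of binding in these mice.

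**Figure D1:**
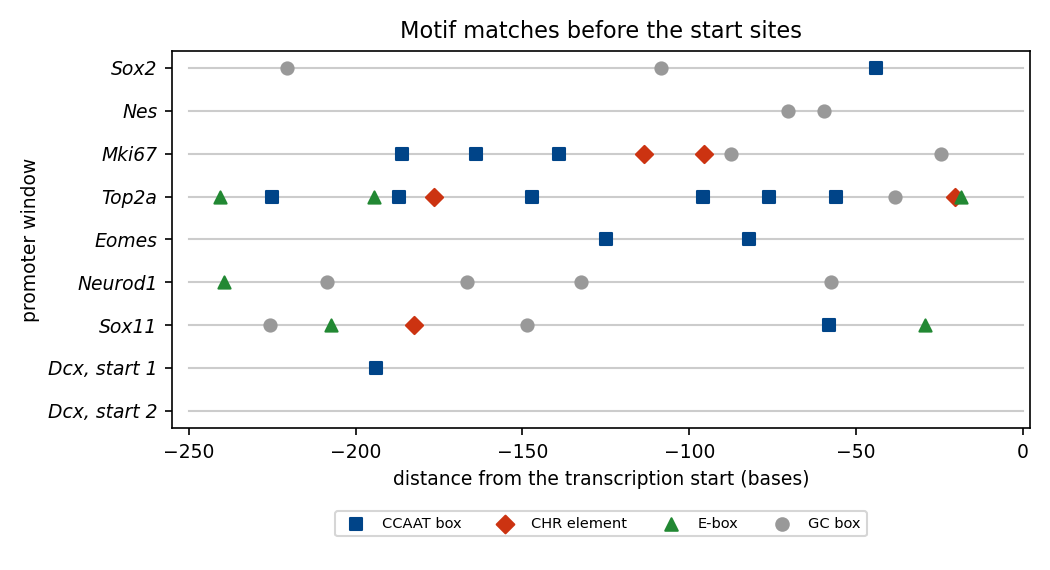
Motif matches in the 250 bases before the RefSeq start sites of 8 of the 9 neurogenesis genes, with distance from the start in bases on the x axis and 1 line per window (Dcx has 2 starts). Squares are CCAAT boxes, diamonds TTTGAA matches, triangles E-boxes and circles GC boxes, and Top2a carries the most CCAAT boxes, 6.

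The precision of each gene is given by the standard error (SE), taken as the authors' log2 fold change divided by their Wald statistic. Values per sample were not used, since the names of those columns match no sample label, so neither the order of the 8 samples nor any overlap between the groups is given. Whether each sample is a separate animal is not stated in the labels, and the p-values cover only sample-to-sample spread, possibly of technical origin. In bulk tissue, fewer cells of a type and less RNA per cell cannot be told apart. Sumo2 RNA was no lower in the samples labelled knockout (log2 fold change 0.42, SE 0.252, adjusted p = 0.761, per the authors' deposited table), so the targeted gene does not check the labels. Sumo3, its close relative, was higher by 0.70 (SE 0.0934, adjusted p = 1.1e-10, per the authors' deposited table). Directions below are for the group labelled knockout.

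Stem cell genes stood close to 0. Sox2, a transcription factor that keeps neural stem cells undifferentiated, stood at a log2 value of 0.05 (SE 0.0822, 95% interval -0.11 to 0.21, adjusted p = 0.9996) per the authors' deposited table. Nes encodes nestin, an intermediate filament of stem cells, and stood at 0.18 (SE 0.135, interval -0.08 to 0.45, adjusted p = 0.919) per the authors' deposited table. Both intervals lay within a 1.5-fold change. Other cells also express both genes, astrocytes in the case of Sox2 and vessels in that of Nes. Of 15 astrocyte markers none was called and 2 had an unadjusted p under 0.05 (8.37% of all genes), with a median of 0.02 over the 15. Of 18 endothelial and mural markers 16 had a positive log2 fold change (median 0.12) in the authors' deposited table, and none was called. An unadjusted p under 0.05 was reached by 5, all positive, against 4.2% of all genes on that side. The smallest p-values were those of Vtn at 0.31 and Anpep at 0.52. The 2 negative markers were Acta2 at -0.30 and Rgs5 at -0.13. The part of either cell type in the values of Sox2 and Nes was not tested.

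A further list of 20 radial glia-like stem cell genes had 19 measured members. Of these 1 was called higher and 1 lower, against 0.967% and 0.53% of all genes of the authors' deposited table. Fabp7, a fatty acid binding protein of radial glia, rose by 0.49 (SE 0.141, interval 0.21 to 0.76, adjusted p = 0.0425, per the authors' deposited table). Lpar1, a receptor of lysophosphatidic acid used to label hippocampal stem cells, fell by 0.52 (SE 0.140, interval -0.79 to -0.24, adjusted p = 0.0222, per the authors' deposited table). Oligodendrocytes also express Lpar1, and all 16 mature oligodendrocyte markers of a list added with their direction known were negative (median -0.42), with 5 called lower in the authors' deposited table. Those 5 were Ermn at -0.55, Tspan2 at -0.48, Aspa at -0.50, Mog at -0.45 and Gpr37 at -0.37. Their part in the value of Lpar1 was not tested. Gfap, the filament of astrocytes and stem cells, stood at 0.14 (SE 0.0470, adjusted p = 0.150), and Thrsp, a regulator of fatty acid synthesis in quiescent stem cells, at -0.23 (SE 0.0809, adjusted p = 0.161) per the authors' deposited table. The median of the list was -0.02.

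**Figure D2:**
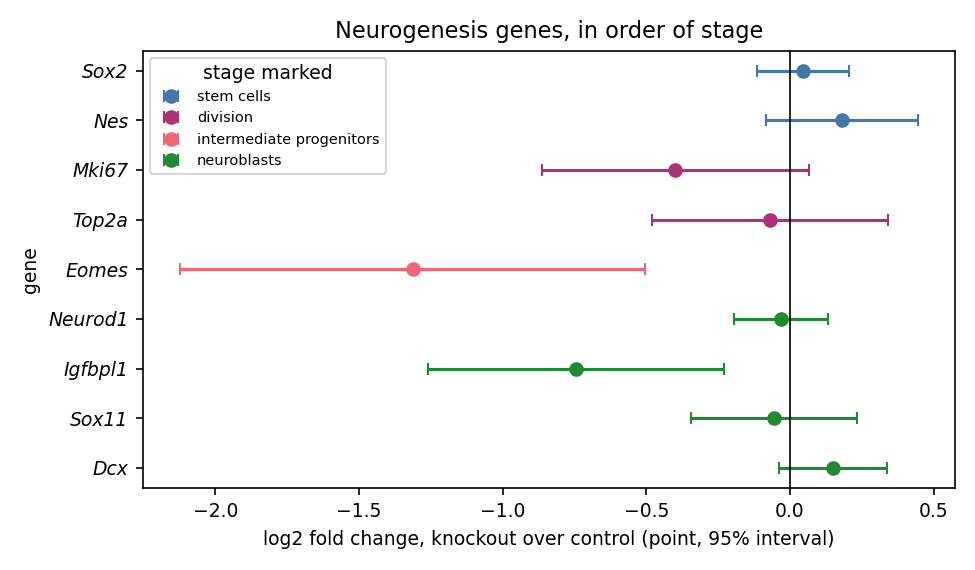
Log2 fold change of knockout over control (x axis) for each of the 9 neurogenesis genes (y axis), as the authors' value with a 95% interval from its SE, in order of the stage each gene marks. Eomes at -1.31 and Igfbpl1 at -0.75 have intervals below 0, and the other 7 intervals hold 0.

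Genes of cell division had wide intervals. Mki67, which encodes the Ki-67 protein of dividing cells, stood at -0.40 (SE 0.237, interval -0.86 to 0.07, adjusted p = 0.761) per the authors' deposited table. Top2a, the topoisomerase that untangles replicated DNA, stood at -0.07 (SE 0.210, interval -0.48 to 0.34, adjusted p = 0.9996) per the authors' deposited table. The interval of Mki67 reached beyond a 1.5-fold decrease, while that of Top2a did not.

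Of 40 other cell division genes, all measured, 18 were positive and 22 negative by the authors' deposited table, and their median was -0.02. Their median SE was 0.288, against 0.0940 over all genes, and above the upper quartile of all genes, 0.226. Smc4, a subunit of the condensin complex that compacts chromosomes, was the 1 called of the 40, where 0.967% of all genes were called higher, and stood higher by 0.43 (SE 0.0775, 1.35-fold, adjusted p = 1.0e-05, per the authors' deposited table). Tpx2, a spindle assembly factor, stood at -0.47 (SE 0.210, adjusted p = 0.427), the kinesin Kif11 at -0.33 (SE 0.188, adjusted p = 0.726) and the cyclin Ccna2 at -0.36 (SE 0.214, adjusted p = 0.761) per the authors' deposited table. Oligodendrocyte precursors are the other main dividing cells of the adult hippocampus. Their list of 14 measured markers had a median of -0.22, with 3 positive and 11 negative, in the authors' deposited table. An unadjusted p under 0.05 was reached by 7, all lower, against 4.17% of all genes on that side. Of these 2 were called lower, against 0.53% of all genes, Olig1 at -0.30 (adjusted p = 0.00805) and Enpp6 at -0.64 (adjusted p = 0.0320). Olig2 stood at -0.28 (adjusted p = 0.0525) and Sox8 at -0.24 (adjusted p = 0.0861) per the authors' deposited table. These 4 genes are not confined to precursors, since Olig1, Olig2 and Sox8 are expressed across the lineage and Enpp6 in newly forming oligodendrocytes. Some markers of the precursors proper, picked after their values were seen, stood near 0 and were not called. These were Pdgfra, the growth factor receptor that defines precursors, at -0.09 (SE 0.0746, adjusted p = 0.978) and the proteoglycans Cspg4 at 0.06 and Vcan at -0.01, per the authors' deposited table. The genes of the list next by p after the 4 named first were lower and not called either. They were Neu4 at -0.33, Bcas1 at -0.39, Sox10 at -0.23 and Gpr17 at -0.20. C1ql1 stood at -0.12 and was not called. The part of oligodendrocyte precursors in the values of Mki67 and Top2a was not tested.

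Eomes, the T-box factor of intermediate progenitors, had the largest difference of the 9 genes. The authors' deposited table puts it at a log2 fold change of -1.31, a ratio of 0.402 to the control level, with an SE of 0.413 and an interval of -2.12 to -0.50. The unadjusted p was 0.00147, rank 327 of 17171 genes, and the adjusted p of 0.0770 in the authors' deposited table missed the threshold. With an adjusted p under 0.1 it would be the 1 called of the 9 genes, where 2.14% of all genes would be. Its SE was at or above that of 87.1% of all genes, the largest of the 9, and whether 1 sample carries the difference could not be seen without values per sample.

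Of 15 further intermediate progenitor genes, all measured, none was called and 3 had an unadjusted p under 0.05 (8.37% of all genes), and the median was -0.06 with 6 positive and 9 negative values in the authors' deposited table. Neurog2, a proneural factor expressed just ahead of Eomes in cortical progenitors, stood at 0.70 (SE 0.330, interval 0.06 to 1.35, adjusted p = 0.489), on the other side of 0 from Eomes, in the authors' deposited table. Sox4, a relative of Sox11, stood at -0.17 (SE 0.0632, adjusted p = 0.205), the cyclin Ccnd2, used in progenitor division, at 0.14 (SE 0.0615, adjusted p = 0.439) and the antiproliferative Btg2 at -0.18 (SE 0.114, adjusted p = 0.828) per the authors' deposited table. Cajal-Retzius cells, early neurons at the hippocampal surface, and neuroblasts of the subventricular zone were also looked at, as other cells of the region or its surroundings. Of 9 Cajal-Retzius markers 4 were positive and 5 negative, with a median of -0.0031. Just under the threshold, 1 was called lower, where 0.53% of all genes were. It was the transcription factor Ebf3 at -0.74 (SE 0.220, adjusted p = 0.0499, per the authors' deposited table). Reln, the secreted guidance protein of these cells, stood at 0.15 (SE 0.0549, adjusted p = 0.185). An unadjusted p under 0.05 was reached by 2 of the 9 (8.37% of all genes), 1 on each side. Of 11 measured markers of subventricular zone and olfactory neuroblasts 9 were negative (median -0.19), none was called and 1 had an unadjusted p under 0.05 (8.37% of all genes) in the authors' deposited table, with Sp8 at -0.80 (SE 0.369, adjusted p = 0.478) and Dlx2 at -0.30 (SE 0.179, adjusted p = 0.759). Their part in the values of Eomes and of the neuroblast genes was not tested.

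**Figure D3:**
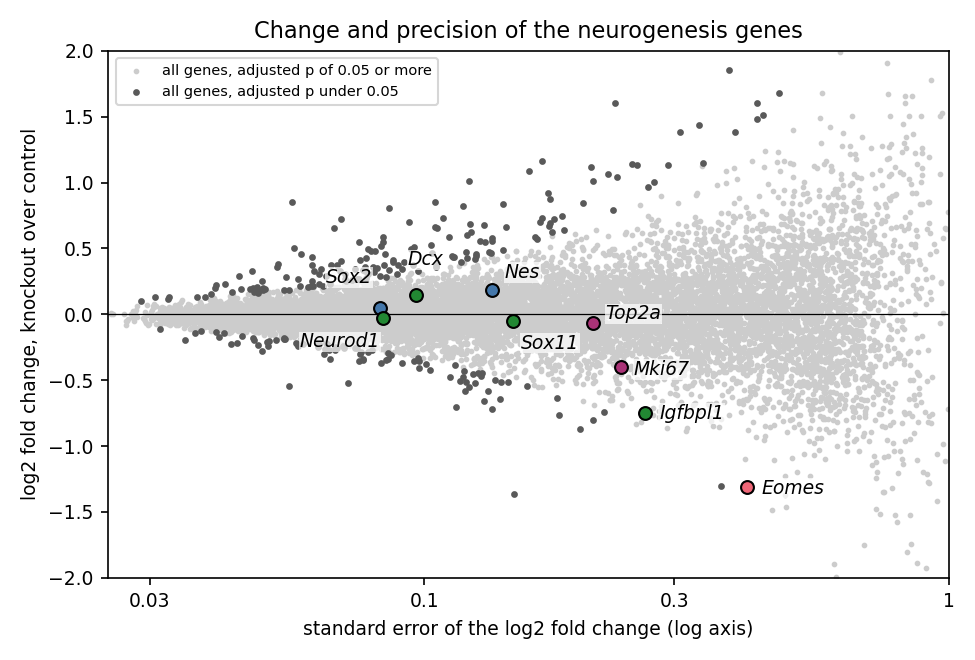
Log2 fold change of knockout over control (y axis) against its SE (x axis, log scale) for the genes of the deposited table, in light grey with an adjusted p of 0.05 or more and in dark grey below it, with the 9 neurogenesis genes as labelled large points coloured by stage (83 genes fall outside the axes). Eomes (SE 0.413) and Igfbpl1 (SE 0.263) lie at the lower edge of the cloud, and Sox2, Neurod1 and Dcx lie near 0 with SEs of 0.0822 to 0.0963.

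The 4 neuroblast genes did not share a direction. Igfbpl1, a secreted protein related to the insulin-like growth factor binding proteins and a marker of newborn neurons, stood at -0.75, a ratio of 0.596 to the control level (SE 0.263, interval -1.26 to -0.23), per the authors' deposited table. Its unadjusted p was 0.00461, rank 483, and its adjusted p 0.164 in the authors' deposited table. Neurod1, the bHLH factor needed for the survival and maturation of new granule cells, stood at -0.03 (SE 0.0834, interval -0.19 to 0.13, adjusted p = 0.9996) per the authors' deposited table. Sox11, a transcription factor of immature neurons that acts on the Dcx promoter, was at -0.05 (SE 0.147, interval -0.34 to 0.23, adjusted p = 0.9996) per the authors' deposited table.

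Dcx, the microtubule-binding doublecortin and the most used marker of neuroblasts, stood at 0.15 (SE 0.0963, interval -0.04 to 0.34, adjusted p = 0.831) per the authors' deposited table. The intervals of Dcx and Neurod1 lay above that of Igfbpl1 without overlap, while that of Sox11 overlapped it. Differences between genes were not tested, because all 9 were measured in the same 8 samples and how their errors vary together is not known from the comparison. At the SE of each gene, the smallest log2 change whose interval would exclude 0 was 0.16 for Neurod1 and 0.19 for Dcx, against 0.29 for Sox11, 0.52 for Igfbpl1 and 0.81 for Eomes. A 1.5-fold change in either direction lay outside the intervals of 6 genes, Sox2, Nes, Top2a, Neurod1, Sox11 and Dcx. These are values of whole hippocampus and not of neuroblasts alone. The part of mature neurons in the values of Neurod1, Sox11 and Dcx was not tested.

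Of 30 other genes of neuroblasts and immature granule cells none was called in the authors' deposited table. They had 16 positive and 14 negative values and a median of 0.0022. Their median SE was 0.0907, against 0.0940 over all genes. Whole hippocampus also holds mature neurons, and their part in these values was not tested. An unadjusted p under 0.05 was reached by 6 on the positive and 2 on the negative side, against 4.2% and 4.17% of all genes of the authors' deposited table. Nnat, neuronatin, stood at 0.28 (SE 0.0930, adjusted p = 0.111), Cd24a, a surface glycoprotein of neuroblasts, at 0.35 (SE 0.126, adjusted p = 0.177) and Igsf21, a synaptic adhesion protein, at 0.20 (SE 0.0770, adjusted p = 0.236) per the authors' deposited table. Sox4, which is on this list too and has a smaller p than Igsf21, lay on the negative side at -0.17 (SE 0.0632, adjusted p = 0.205) per the authors' deposited table. Among the 9 genes, 2 reached an unadjusted p under 0.05, both on the negative side, where 8.37% of all genes did so in either direction. The genes were chosen with earlier results of these data known, so this count is a description.

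Mature granule cells, the end of the lineage, were read from 16 markers, of which 4 were positive and 12 negative, with a median of -0.04 in the authors' deposited table. Of these 2 were called higher and 1 lower, against 0.967% and 0.53% of all genes. On the positive side 3 and on the negative side 4 had an unadjusted p under 0.05, against 4.2% and 4.17% of all genes. Lct, the lactase gene, rose by 0.86 (SE 0.105, adjusted p = 7.3e-13), Dsp, the junction protein desmoplakin, rose by 0.34 (SE 0.0738, adjusted p = 6.7e-04), and Rasgrp1, a Ras activator, fell by 0.28 (SE 0.0759, adjusted p = 0.0194) per the authors' deposited table. Maml2, a coactivator of Notch signalling, stood at -0.23 (SE 0.0770, adjusted p = 0.128) per the authors' deposited table. Signals of the neurogenic niche had no called gene of 38 measured and 6 with an unadjusted p under 0.05 (8.37% of all genes), with 19 positive and 19 negative values and a median of 0.02 in the authors' deposited table. Wnt3, a Wnt ligand that hippocampal astrocytes supply to progenitors, stood at -0.83 (SE 0.254, interval -1.33 to -0.34, adjusted p = 0.0615), and Id3, a target of BMP signals, at 0.24 (SE 0.0731, adjusted p = 0.0597) per the authors' deposited table. Igf1r, the receptor of insulin-like growth factor 1, stood at 0.20 (SE 0.0759, adjusted p = 0.261) per the authors' deposited table.

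**Figure D4:**
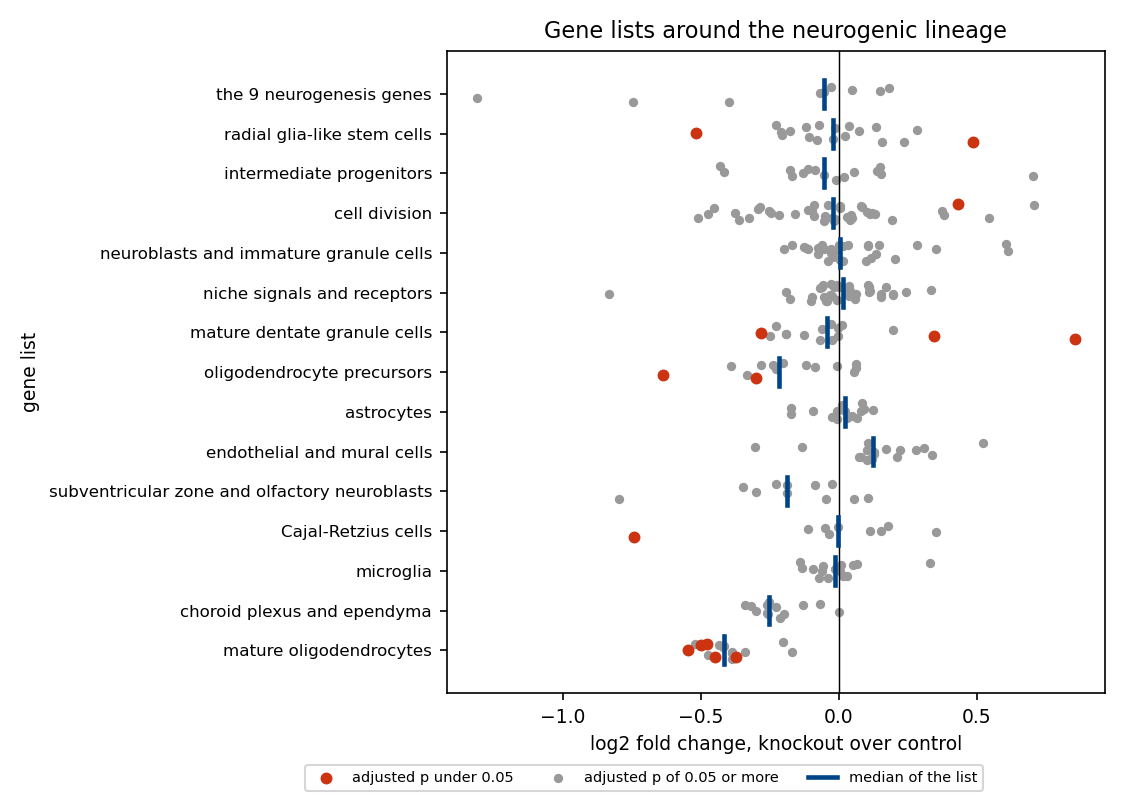
Log2 fold change of knockout over control (x axis) of every measured gene in 15 gene lists (y axis), with the median of each list as a vertical bar and genes with an adjusted p under 0.05 in red. The lists of radial glia-like stem cells, intermediate progenitors, cell division, and neuroblasts and immature granule cells have medians of -0.06 to 0.00. Lower medians are those of subventricular zone and olfactory neuroblasts (-0.19), oligodendrocyte precursors (-0.22), choroid plexus and ependyma (-0.25) and mature oligodendrocytes (-0.42).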

How the data were processed

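Tools named in the submitters' processing notes are DESeq2, HTSeq, STAR, cutadapt and Trim Galore, with no versions. No source used here gives the genome build, the annotation, the strand setting of the counting or whether fold changes were shrunken. Per the file headers, the authors deposited for each of 17171 genes a log2 ratio of knockout to wild type, its Wald statistic (a score in units of the standard error) and its p-value before and after adjustment. A further 8 columns of normalized values match no sample label and were used in no step, so depth per library was not analysed here and the model planned on values per sample was replaced, as planned for that case, by a description of the deposited comparison.

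Dividing the log2 ratio by the statistic gave the standard error, and a normal distribution gave the 95% interval. Recomputed p-values were within 2.8e-15 of those deposited, and recomputed Benjamini-Hochberg values within 9.6e-15. The recomputation was tested on simulated data. Genes are called where the adjusted p over all genes is below 0.05. The members and lists were chosen with earlier results of these data known, and no set test was run. From each of 13 other lists (248 distinct measured genes, 5 of them in more than 1 list) called genes could be named, and otherwise up to 4 with the smallest p. The mature oligodendrocyte list was added later, and its 5 called genes are named. Pdgfra, Cspg4, Vcan, Neu4, Bcas1, Sox10, Gpr17, C1ql1, Acta2 and Rgs5 fall outside this rule. Identifiers were matched to GENCODE M21 (16955 matched, 216 did not), and for 34 symbols with 2 identifiers lists kept the one matched. Of 50-base windows of their transcripts, at most 5.71% (Neurod1) occurred in other genes for the 9 genes, against 19.2% for Sumo2. Software was scipy 1.17.1, matplotlib 3.10.9, pandas 2.3.3 and numpy 2.4.6 under Python 3.11.15. Alternatives covered the genes adjusted over and the thresholds.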

Additional observations from a re-analysis of the deposited data

How the results depend on the processing

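By the authors' deposited table, none of the 9 genes was called with the adjustment over coding genes only. None was called with a fold of at least 1.5 or with Bonferroni. Genes with an SE of at most 0.25 included 7 of the 9, and none of the 7 was called. That filter removed Eomes and Igfbpl1, so it says nothing of these 2. With an adjusted p under 0.1, 1 was called (Eomes, adjusted p = 0.0770, and 0.0724 over coding genes), and with an unadjusted p under 0.05, chosen after seeing the data, 2 were (Eomes and Igfbpl1). By construction of each threshold, the 257 calls over all genes (166 higher, 91 lower) became 67 with the fold (56 and 11), 79 with Bonferroni (64 and 15) and 1438 unadjusted (722 and 716). The 9 calls among the 248 genes of the 13 lists (4 higher, 5 lower) became 48 unadjusted (24 and 24). Over all genes the shares were 1.5% and 8.37%. Of 52 recomputed results for single members, 49 stayed on their side of the threshold. No member was called in the main setting, and Bonferroni and the fold can only remove calls. Their results for the members were thus fixed in advance. No paired analysis was possible because no column with a replicate number could be used. Leaving out each replicate, other pseudocounts and a filter on low values were planned and not run, as the values per sample could not be tied to groups. Precision limits Eomes and Igfbpl1 most, by their SEs of 0.413 and 0.263.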

Other observations

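Of the cell division list, 32 of 40 genes had a RefSeq promoter window. Over any of their windows of 250 bases, 27 (84.4%) hold CCAAT and 10 (31.3%) hold both CCAAT and TTTGAA, against 37.5% and 6.45% of the 27025 genes with a window. Mki67 and Top2a hold both, and so does Sox11, which marks neuroblasts. None of these genes is on that list. This is a description with no test.

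Microglia and the ventricle lining were also read. Of 15 microglia markers none was called and 1 had an unadjusted p under 0.05 (8.37% of all genes) by the authors' deposited table. Their median was -0.02, with Fcrls, a microglial receptor-like protein, at 0.33 (SE 0.113, adjusted p = 0.130). All 13 choroid plexus and ependyma markers were negative in the authors' deposited table (median -0.25), where 8607 of all 17171 genes were. Their values ran from -0.34 to -3.1e-05, and their median SE was 0.448, against 0.0940 over all genes. How these genes vary together was not tested. None of the 13 was called and 1 had an unadjusted p under 0.05 (8.37% of all genes). Foxj1, the ciliogenesis factor of ependymal cells, stood at -0.30 (SE 0.113, adjusted p = 0.229).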
